A study of Homo sapiens with 10 samples.

Results

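The nuclear genes of oxidative phosphorylation were taken by symbol (NDUFA, NDUFB, NDUFC, NDUFS or NDUFV with a number, UQCR, COX4 to COX8, SDHA to SDHD, and ATP5). The rule found 78 of the 17687 genes measured. They comprised 32 genes of complex I, 3 of complex II, 8 of complex III, 17 of complex IV and 18 of ATP synthase. One match, NDUFV1-DT, is a non-coding transcript beside NDUFV1 and not a subunit. Another, ATP5MF-PTCD1, joins the symbols of ATP5MF and PTCD1 and was counted with ATP synthase. RefSeq lists 87 coding genes under these symbols, of which 77 were measured and 10 were not analysed here. COXFA4 and COXFA4L2, formerly NDUFA4 and NDUFA4L2, fall outside the rule under their present symbols and are described separately.

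Oxidative phosphorylation makes ATP in the inner mitochondrial membrane. Complexes I and II pass electrons from NADH and succinate to ubiquinone, complex III passes them to cytochrome c, and complex IV passes them to oxygen. Complexes I, III and IV pump protons, and ATP synthase uses the resulting gradient. Most subunits are encoded in the nucleus and some in mitochondrial DNA, and assembly needs both sets in balance. Several complex IV subunits have paralogues that are known from particular tissues, such as muscle or testis.

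The data came from 10 arrays of human myeloid cell line RNA, with 1 array a condition. OR21, described in the series title as a hypomethylating agent (OR-2100), was given for 96 hours at 500 nM to HL60 cells from acute myeloid leukaemia and K562 cells from chronic myeloid leukaemia. MDSL and SKM1 cells, from myelodysplastic syndrome, received 100 nM. Each of the 4 lines had 1 treated and 1 control array, and 2 further arrays held HL60 derivatives labelled AZA resistant and OR21 resistant, both without treatment. The MDSL medium contained interleukin-3, per the labels' protocols. The labels do not say how the resistant derivatives were selected, whether they are clones, or how long they had been off the drug. In bulk RNA, fewer cells of a type and less RNA per cell cannot be told apart.

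Values are log2 intensities of a gene's probe set, and differences are log2, treated minus control. Array medians over all genes ran from 6.63 to 7.05 log2. Hybridisation spikes averaged 11.71 log2 on the OR21-treated HL60 array and 10.85 to 11.10 log2 elsewhere. Background probes of the MDSL control array had a median of 4.98 log2, against 5.41 to 5.43 on the others. The parts of these 2 arrays in the results were not tested. Of 4 measured promyelocyte and myeloid markers, all 4 lay above the array's gene median in HL60, MDSL and SKM1, treated and control, and in both derivatives, while 0 did in K562. Their levels nevertheless moved with the groups. All 4 were at least 1.5-fold lower in treated HL60 and in the OR21 resistant derivative, 3 in the AZA resistant derivative, 2 in treated SKM1, 1 in treated K562 and 0 in treated MDSL. The log2 of their summed intensity was 16.14 in treated, 16.81 in AZA resistant and 16.34 in OR21 resistant HL60, against 17.56 in parental HL60. It was 14.45 against 14.16 in treated and control MDSL, and 16.45 against 17.67 in treated and control SKM1. PRTN3, a granule protease, stood at 11.48 log2 in treated, 10.63 in AZA resistant and 10.90 in OR21 resistant HL60, against 14.78 in parental HL60. MPO, the granule peroxidase, was at 13.11 log2 in treated MDSL, against 8.62 in its control. It was the 1 myeloid marker at least 1.5-fold higher there. AZU1 was at 13.27 log2, against 13.83, PRTN3 at 8.30, against 8.51, and CTSG at 11.70, against 11.56. All 4 measured erythroid markers lay above the gene median in K562, treated and control. ALAS2, of haem synthesis, stood at 14.20 log2 in treated K562, against 8.07 in its control, and the erythroid factor GATA1 at 10.29 log2 in treated SKM1, against 6.49 in its control. In treated SKM1, KLF1 was at 5.38 log2, against 4.67, but HBE1 was at 5.48, against 5.80, and ALAS2 at 4.84, against 5.19. At least 1.5-fold higher were 4 of the 4 erythroid markers in treated MDSL, 2 in SKM1, 2 in K562 and 1 in HL60. The part of these marker shifts in the results was not tested. Of 3 measured epithelial markers, 1 lay above the gene median in SKM1 and 2 in K562, treated and control, and 1 in treated HL60. The 1 in treated HL60 was CDH1, at 7.36 log2, against 3.77 in its control. EPCAM was at 12.06 and 12.46 log2 in treated and control SKM1 and at 14.29 and 13.31 log2 in treated and control K562. In treated and control SKM1, KRT19 was at 6.34 and 6.54 log2 and CDH1 at 4.15 and 3.95 log2. On every array 1 of 2 B lymphocyte and 1 of 4 fibroblast markers lay above the gene median. Of 4 T and NK lymphocyte markers, 1 or 2 did. CD79A, of B lymphocytes, was at 11.02 and 11.49 log2 in treated and control MDSL. CD3D, of T lymphocytes, was at 7.21 log2 in treated HL60, against 3.96 in its control.

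Most subunit genes were well measured. Of the 78, 72 were above the background median on all 10 arrays and 68 were above the array's gene median on all 10. COX6B2 and NDUFV1-DT were above background on 0 arrays, ATP5MF-PTCD1 and COX7B2 on 1, COX4I2 on 2 and COX8C on 9. Differences of these 6 genes are therefore limited by background. The mean level was at or above 10 log2 for 63 of the 78 genes. Because 3804 of all genes reached that level, most shares of genes moved are given both for all genes and for these 3804.

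Before treatment the lines differed in their subunit levels. The range over the 4 control arrays had a median of 1.49 log2 and was at least 1 log2 for 56 of the 78 genes. It was widest for ATP5MF, a small subunit of the membrane part of ATP synthase, with 14.94 log2 in the HL60 control, 11.28 in that of MDSL, 14.39 in that of SKM1 and 15.78 in that of K562. NDUFA5, an accessory subunit of complex I, followed with 11.94, 9.71, 10.77 and 13.61 log2 in the same order. The MDSL control was the lowest of the 4 controls for 59 of the 78 genes, and for 39.5% of genes at or above 10 log2. The K562 control was the highest for 43, and for 31.7% of those genes. With 1 array a line these orders have no replicate check.

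After OR21, no subunit gene passed the test over the 4 lines. In limma with the cell line as a block, 0 of 78 passed in either direction at an adjusted p under 0.05, against 0.0396% of all genes higher and 0.0% lower. The smallest adjusted p was 0.122. At an unadjusted p under 0.05, 15 genes were lower (19.2%) and 2 were higher (2.56%), against 10.1% and 8.98% of all genes. No share of genes at or above 10 log2 is given at this cut. The count of lower genes depended on single lines and on scaling. It was 4 without HL60, 11 without MDSL, 8 without SKM1 and 9 without K562, 9 with spike scaling and 22 with median centring. Shares of all genes are not given for these settings. The 15 comprised 8 genes of complex I, 6 of ATP synthase and SDHA, with 0 of complexes III and IV. Among the 6 was ATP5MF-PTCD1, with an unadjusted p of 0.0497 by limma and a level above background on 1 of the 10 arrays. Both that were higher were paralogues in complex IV, COX7A1 and COX8C. By size, 14 genes were at least 1.5-fold lower in the mean of the 4 lines (17.9%). The shares were 9.76% of all genes and 19.7% of genes at or above 10 log2, so the subunit share was near the latter. Another 2 genes were at least 1.5-fold higher (2.56%), against 11.1% and 12.1%.

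The direction was mostly downward and the size small outside HL60. The mean difference over the lines was below 0 for 65 of 78 genes (83.3%), against 52.4% of all genes and 57.9% of genes at or above 10 log2. Leaving HL60 out, it was below 0 for 56 (71.8%), against 51.9% and 54.7%. There were 27 genes lower in all 4 lines (34.6%), against 15.3% of all genes and 25.4% of those at or above 10 log2. The 27 include ATP5MF-PTCD1 and COX4I2, whose differences are limited by background. Only COX7A1, COX8C and NDUFB1 were higher in all 4 (3.85%), against 12.2% and 14.8%. The median of the 78 mean differences was -0.24 log2, and -0.14 without HL60, against -0.02 over all genes in both cases. Over genes at or above 10 log2 the medians were -0.11 and -0.05.

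The differences were largest in HL60. There, 42 of 78 genes were at least 1.5-fold lower (53.8%), against 21.3% of all genes and 35.9% of genes at or above 10 log2. Another 3 genes were at least 1.5-fold higher (3.85%), against 18.3% and 18.2%. The median difference was -0.62 log2 in HL60, against -0.05 over all genes and -0.25 over genes at or above 10 log2. With arrays scaled to the hybridisation spikes, 69 genes were at least 1.5-fold lower and the median was -1.39, against -0.81 over all genes. That all-gene median lies itself beyond 1.5-fold, so most of all genes were also counted as lower under this scaling. The distance between subunit and all-gene medians stayed at -0.58 log2. HL60 had the lowest of the 4 differences for 55 genes (70.5%), against 31.0% of all genes and 42.6% of genes at or above 10 log2. These are sizes from 1 array a condition, with no test.

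In the other lines the shares moved were near or under those of all genes. In MDSL 7 genes were at least 1.5-fold lower (8.97%), against 14.9% of all genes and 20.2% of genes at or above 10 log2, and 4 higher (5.13%), against 14.4% and 15.7%. In SKM1 the counts were 5 lower (6.41%), against 14.2% and 18.9%, and 4 higher (5.13%), against 15.0% and 17.8%. In K562 they were 10 lower (12.8%), against 12.6% and 17.8%, and 1 higher (1.28%), against 13.7% and 12.1%. The median difference was -0.07 log2 for MDSL, -0.21 for SKM1 and -0.10 for K562, and the all-gene medians were -0.04, -0.02 and -0.00060 in that order. Over genes at or above 10 log2 they were -0.06, -0.02 and -0.10. The subunit medians of MDSL and K562 lay within 0.01 log2 of the medians of that set. The subunit genes were not matched to that set by level, and some of them had means under 10 log2. At 2-fold, 20 genes were lower and 2 higher in HL60, against 11.1% and 10.2% of all genes. The counts were 1 and 1 in MDSL, against 4.88% and 6.62%, 1 and 1 in SKM1, against 4.47% and 7.10%, and 1 and 0 in K562, against 3.86% and 5.05%.

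**Figure D1:**
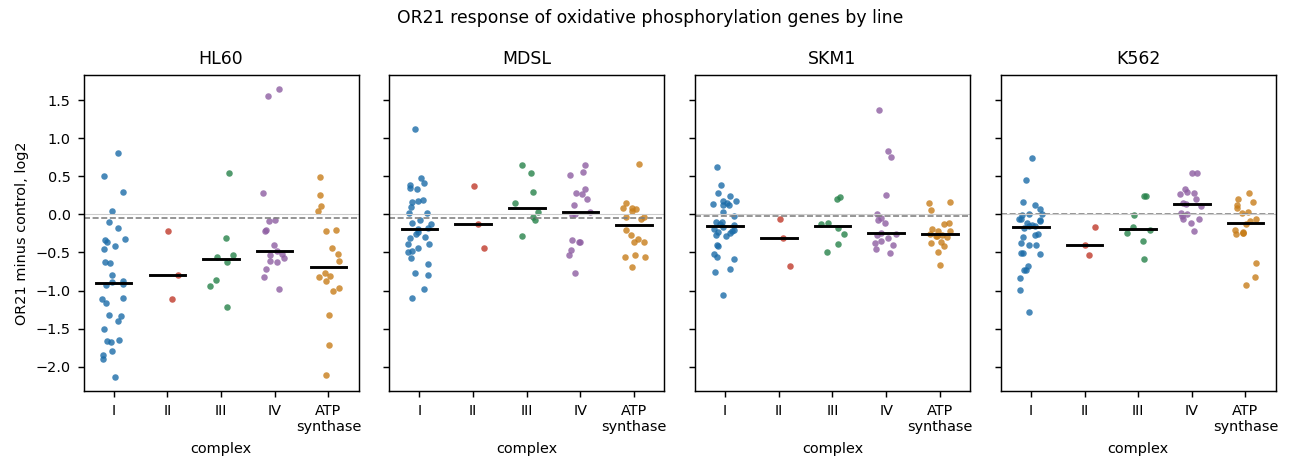
Log2 difference (OR21 minus control) of each of the 78 genes in the 4 lines, grouped by complex on the x axis. Each point is 1 gene, black bars are medians, and the dashed line is the median over all genes. The complex I median is -0.90 in HL60 and between -0.19 and -0.15 in the other 3 lines.

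Complex I had the lowest median difference of the 5 groups in HL60. It was -0.90 log2 there, with -0.19 for MDSL, -0.15 for SKM1 and -0.17 for K562. At least 1.5-fold lower were 21 of 32 genes for HL60 (65.6%), 5 for MDSL (15.6%), 3 for SKM1 (9.38%) and 6 for K562 (18.8%). The shares of all genes were 21.3%, 14.9%, 14.2% and 12.6%, and those of genes at or above 10 log2 35.9%, 20.2%, 18.9% and 17.8%, so the MDSL and K562 shares were near the background. The NDUFS genes stood at -1.40 in HL60, with 5 of 5 at least 1.5-fold lower, and at -0.18, -0.58 and -0.51 in MDSL, SKM1 and K562.

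NDUFA9 is an accessory subunit where the peripheral arm meets the membrane arm of complex I. Its levels were 11.33, 11.15, 10.00 and 11.62 log2 in treated HL60, MDSL, SKM1 and K562, against 13.13, 11.59, 11.05 and 12.90 log2 in their controls. Each treated array was under its own control, although treated and control ranges overlapped across lines. The mean difference was -1.14 ± 0.56 log2 (SD, n = 4 lines), the lowest of the 78 genes, with an adjusted p of 0.122 by limma. Without HL60 it was -0.92 ± 0.43 (SD, n = 3 lines).

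Among the core subunits, those conserved from bacteria, 4 encoded in the nucleus were measured. NDUFS3, in the peripheral arm, stood at 10.79, 10.21, 11.09 and 12.20 log2 in treated HL60, MDSL, SKM1 and K562, against 12.19, 11.18, 11.81 and 12.47 log2 in their controls. It was lower in 4 of 4 lines, by a mean of -0.84 ± 0.47 log2 (SD, n = 4 lines, adjusted p = 0.147 by limma). For NDUFV1, which binds NADH and the flavin cofactor, the mean difference was -0.72 ± 0.36 log2 (SD, n = 4 lines), with an adjusted p of 0.155 by limma. Its difference was largest in MDSL, at -1.10, followed by -0.93 in HL60, -0.56 in SKM1 and -0.30 in K562. The iron-sulphur subunit NDUFS7 differed by -0.83 ± 0.79 log2, but with -1.84 in HL60, -0.99 in K562, -0.51 in SKM1 and 0.01 in MDSL. NDUFS7 was dim, at 5.71 log2 in treated HL60, where the background median was 5.43. It was above the array's gene median on 4 of the 10 arrays. NDUFV2, another iron-sulphur subunit, differed by -0.46 in HL60 and 0.38 in MDSL. All 4 core genes were thus lower in HL60, SKM1 and K562, and 2 of the 4 in MDSL.

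The 150 bases before the RefSeq start of NDUFS3 (GRCh38.p14, chr11:47578924-47579073, plus strand) are shown because this gene was lower in every line and its window holds 2 copies of the ETS core CCGGAAG, the type of site that the GABP factor is known to bind. NDUFA7 (GRCh38.p14, chr19:8321376-8321525, minus strand) is shown because it had the lowest difference of all 78 genes in both resistant derivatives. Its window holds the E-box CACGTG, which MYC with MAX is known to bind. Capitals mark these letters on either strand.
NDUFS3: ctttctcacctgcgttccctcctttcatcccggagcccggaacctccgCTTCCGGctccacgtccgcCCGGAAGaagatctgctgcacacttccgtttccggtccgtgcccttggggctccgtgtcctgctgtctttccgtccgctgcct
NDUFA7: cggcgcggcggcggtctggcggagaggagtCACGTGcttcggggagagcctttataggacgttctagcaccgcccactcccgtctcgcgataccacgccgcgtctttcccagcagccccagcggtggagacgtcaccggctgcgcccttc

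In these stretches the ETS cores of NDUFS3 lay 102 to 96 and 83 to 77 bases before the start, and the E-box of NDUFA7 lay 120 to 115 bases before it. RefSeq windows of 250 bases before to 50 after a start were held for 63 of the 78 genes, 75 windows in all. The ETS core CCGGAAG was in 25.3% of the 75 windows, against 10.3% of all 35116 windows. The YY1 letters AAGATGGC were in 14.7%, against 2.89%, the ERR letters AAGGTCA in 14.7%, against 3.92%, and the palindromic NRF1 motif in 5.33%, against 1.24%. The E-box was in 9.33%, against 7.26%. Both strands were searched, and an ETS core and the YY1 letters, which can overlap, were both present in 2.67%, against 0.555%. These shares describe letters, not binding.

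Other accessory subunits of complex I varied widely between lines. NDUFA8, on the intermembrane side, stood at 9.03, 10.37, 10.56 and 12.20 log2 in treated HL60, MDSL, SKM1 and K562, against 11.16, 10.44, 10.84 and 12.35 log2 in their controls. Its difference of -2.14 in HL60 was the lowest of the 78 genes in that line, while the other 3 lines lay between -0.28 and -0.07. NDUFB2, of the membrane arm, differed by -1.90 in HL60, -0.84 in K562, -0.39 in MDSL and -0.19 in SKM1 (mean -0.83 ± 0.76 log2, SD, n = 4 lines, adjusted p = 0.221 by limma). NDUFB11, also of the membrane arm, differed by -0.87 in HL60 and -0.80 in MDSL, but by -0.03 in SKM1 and -0.07 in K562. NDUFS6 differed by -1.50 in HL60 and -0.76 in SKM1 but by 0.35 in MDSL.

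A few complex I genes were higher. NDUFC1, a small membrane-arm subunit, stood at 8.72, 8.83, 9.65 and 11.46 log2 in treated HL60, MDSL, SKM1 and K562, against 8.82, 7.71, 9.27 and 11.02 log2 in their controls. The treated array was above its control in 3 of 4 lines, and the MDSL difference of 1.12 was the highest of the 78 genes in that line. NDUFB1, another small subunit of the membrane arm, had a mean difference of 0.39 ± 0.30 log2 (SD, n = 4 lines), with an adjusted p of 0.328 by limma, and was higher in 4 of 4 lines. NDUFB5 differed by 0.75 in K562, the 1 gene there at least 1.5-fold higher, and by -0.42 in HL60. NDUFA13, also known as GRIM-19, differed by 0.63 in SKM1 and -0.33 in HL60.

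Complex II, the tricarboxylic acid cycle enzyme succinate dehydrogenase, was measured through 3 genes. SDHA, its flavin-bearing catalytic subunit, stood at 11.10, 10.35, 10.92 and 12.54 log2 in treated HL60, MDSL, SKM1 and K562, against 11.89, 10.79, 11.61 and 12.71 log2 in their controls. It was lower in 4 of 4 lines, by a mean of -0.52 ± 0.28 log2 (SD, n = 4 lines, adjusted p = 0.214 by limma). The membrane anchors SDHC and SDHD, which hold the ubiquinone site, differed by -0.08 ± 0.33 and -0.52 ± 0.43 log2 (SD, n = 4 lines).

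Complex III showed no common direction. Its median difference was -0.59 log2 in HL60, -0.15 in SKM1 and -0.19 in K562, and 0.09 in MDSL, which turned to -0.03 under quantile normalization. UQCRH, the hinge protein near cytochrome c1, differed by -0.24 ± 0.23 log2 and its intronless copy UQCRHL by -0.56 ± 0.49 (SD, n = 4 lines). Because the copies are so alike, either probe set may read both transcripts. UQCRB, a small subunit, differed by 0.55 in HL60, and UQCR10 by 0.64 in MDSL but -0.55 in HL60. No member reached 1.5-fold in either direction in the mean of the 4 lines.

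Complex IV had the median closest to 0 in HL60, at -0.48 log2. It was 0.03 for MDSL, which turned negative under quantile normalization and median centring, -0.24 for SKM1, and 0.13 for K562, which turned to -0.01 under median centring. The widely expressed members of the paralogue pairs had mean differences near 0: COX4I1 differed by -0.19 ± 0.33 log2, COX6A1 by -0.15 ± 0.36, COX6B1 by -0.02 ± 0.15, COX7A2 by -0.05 ± 0.16, COX7B by -0.19 ± 0.58 and COX8A by -0.11 ± 0.46 (SD, n = 4 lines). Adjusted p by limma lay between 0.643 and 0.973 for these 6. For COX6B1, COX7B and COX8A the mean turned above 0 without HL60, and for COX7A2 without SKM1. COX7B differed by -0.83 in HL60 and 0.51 in MDSL, and COX8A by -0.48 and 0.56. Outside these pairs, COX5A differed by -0.25 ± 0.16 log2 and COX7C by -0.29 ± 0.30, both lower in 4 of 4 lines. COX5B differed by -0.18 ± 0.31, COX6C by -0.24 ± 0.62 and COX7A2L by 0.09 ± 0.39 (SD, n = 4 lines).

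The tissue-restricted paralogues of complex IV were low, and COX8C and COX7A1 were higher after OR21 in all 4 lines without passing the test. COX8C, known from testis, stood at 6.80, 6.27, 6.35 and 6.32 log2 in treated HL60, MDSL, SKM1 and K562, against 5.15, 5.63, 5.59 and 5.78 log2 in their controls. Every treated array lay above every control array. The mean difference was 0.90 ± 0.51 log2 (SD, n = 4 lines, adjusted p = 0.144 by limma), and 0.65 ± 0.10 without HL60 (SD, n = 3 lines). The HL60 control was under its background median of 5.41 log2, so the size of the HL60 difference of 1.65 is imprecise. The hybridisation spikes were also higher on the treated HL60 array, at 11.71 log2, against 10.94 on its control.

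COX7A1, the muscle form of COX7A, stood at 7.64, 6.23, 7.30 and 6.74 log2 in treated HL60, MDSL, SKM1 and K562, against 6.08, 6.10, 5.93 and 6.40 log2 in their controls. The difference was 1.56 in HL60 and 1.37 in SKM1, but 0.12 in MDSL and 0.34 in K562. Its mean was 0.85 ± 0.72 log2 (SD, n = 4 lines, adjusted p = 0.202 by limma). The muscle form COX6A2 differed by -0.29 ± 0.50 log2 and COX4I2, known for its oxygen response in lung, by -0.25 ± 0.19. COX7B2 and COX6B2, both known from testis, had levels at most 5.56 and 4.62 log2 on any array and differed by 0.19 ± 0.60 and -0.09 ± 0.43 (SD, n = 4 lines). Adjusted p by limma lay between 0.495 and 0.864 for these 4.

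The bases before the RefSeq starts of COX8C and its widely expressed partner COX8A are set beside each other because OR21 is described as acting on DNA methylation, which in human cells falls mainly on CG pairs. Capitals mark each CG in the 150 bases before the start, for COX8C (GRCh38.p14, chr14:93347032-93347181, plus strand) and COX8A (GRCh38.p14, chr11:63974470-63974619, plus strand).
COX8C: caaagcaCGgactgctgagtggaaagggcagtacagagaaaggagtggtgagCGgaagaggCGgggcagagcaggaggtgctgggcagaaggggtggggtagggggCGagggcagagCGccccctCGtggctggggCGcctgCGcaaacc
COX8A: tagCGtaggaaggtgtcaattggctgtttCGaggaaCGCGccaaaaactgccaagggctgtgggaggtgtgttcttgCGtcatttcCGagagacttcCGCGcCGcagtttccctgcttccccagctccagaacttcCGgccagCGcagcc

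COX8C held 8 CG pairs and COX8A 11 in these 150 bases. Over the 250 bases before the start the counts were 8 and 16. The median of the 75 windows was 16 CG pairs over 250 bases, against 11 over all windows, and 82.7% of them held at least 10, against 52.2%. No methylation was measured here.

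**Figure D2:**
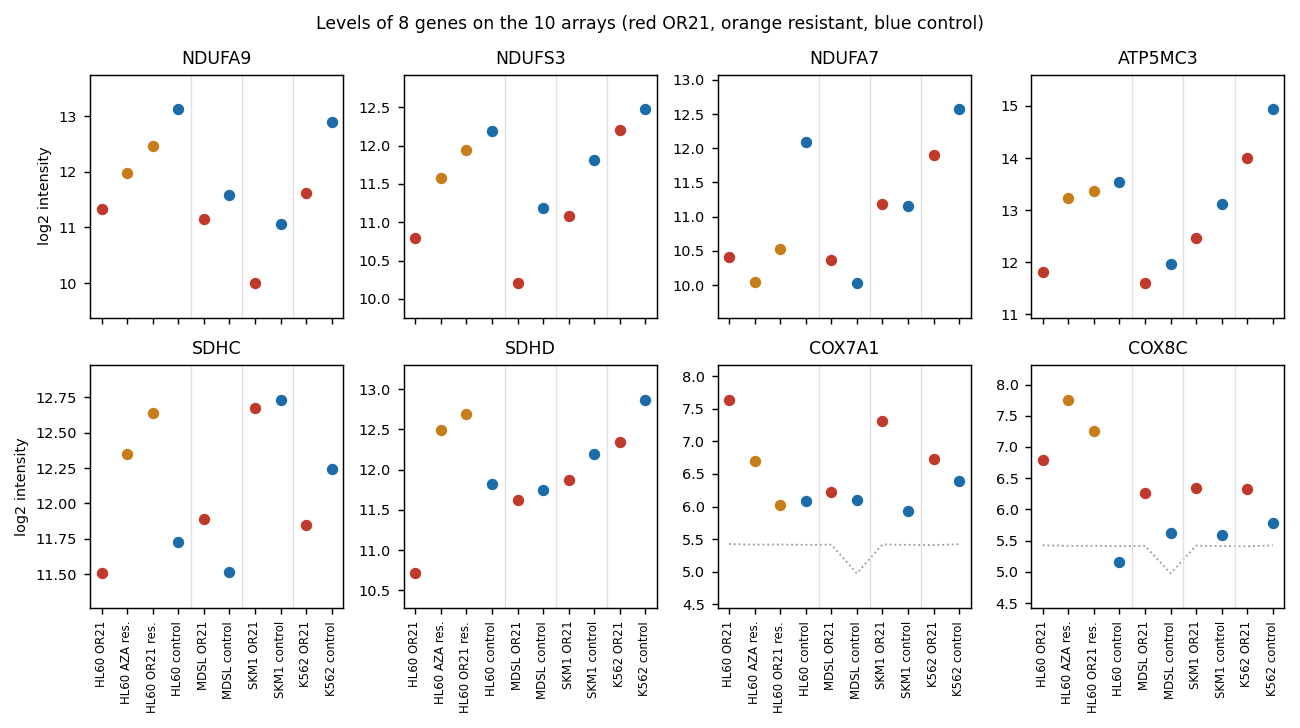
Log2 intensity of 8 genes on each of the 10 arrays, each point being 1 array, with vertical scales that differ between genes. Red marks OR21, orange the resistant derivatives and blue controls, and the dotted line for COX7A1 and COX8C is the array's background median. For NDUFA9 and NDUFS3 each treated array lies under its control, and for COX8C all 4 treated arrays lie above all 4 controls.

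The ATP synthase genes had median differences of -0.69 log2 for HL60, -0.13 for MDSL, -0.26 for SKM1 and -0.11 for K562. In the F1 head, which makes the ATP, ATP5F1D of the central stalk stood at 10.04, 10.14, 10.01 and 11.54 log2 in treated HL60, MDSL, SKM1 and K562, against 12.15, 10.84, 10.50 and 11.78 log2 in their controls. It was lower in 4 of 4 lines, by a mean of -0.88 ± 0.84 log2 (SD, n = 4 lines, adjusted p = 0.223 by limma). All 4 measured F1 genes were at least 1.5-fold lower in HL60. The other central stalk gene named, ATP5F1C, differed by -1.01 in HL60 and 0.66 in MDSL, and its mean of -0.14 turned to 0.15 without HL60.

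The membrane ring of c subunits is encoded by ATP5MC1, ATP5MC2 and ATP5MC3, which are known to give the same mature protein. ATP5MC3 stood at 11.82, 11.60, 12.46 and 14.01 log2 in treated HL60, MDSL, SKM1 and K562, against 13.53, 11.96, 13.12 and 14.94 log2 in their controls. Each treated array was under its control, and the mean difference was -0.92 ± 0.58 log2 (SD, n = 4 lines, adjusted p = 0.153 by limma), or -0.65 ± 0.28 without HL60 (SD, n = 3 lines). ATP5MC1 differed by -0.58 ± 0.51 and was lower in 4 of 4 lines. ATP5MC2 differed by -0.23 ± 0.34 and was higher in K562, by 0.28. ATP5ME, a small membrane subunit, had a mean difference of -0.60 ± 0.31 log2 (SD, n = 4 lines), with an adjusted p of 0.184 by limma. ATP5IF1, the inhibitor of ATP synthase run in reverse, differed by 0.01 ± 0.16 log2 (SD, n = 4 lines), and its sign turned under median centring.

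**Figure D3:**
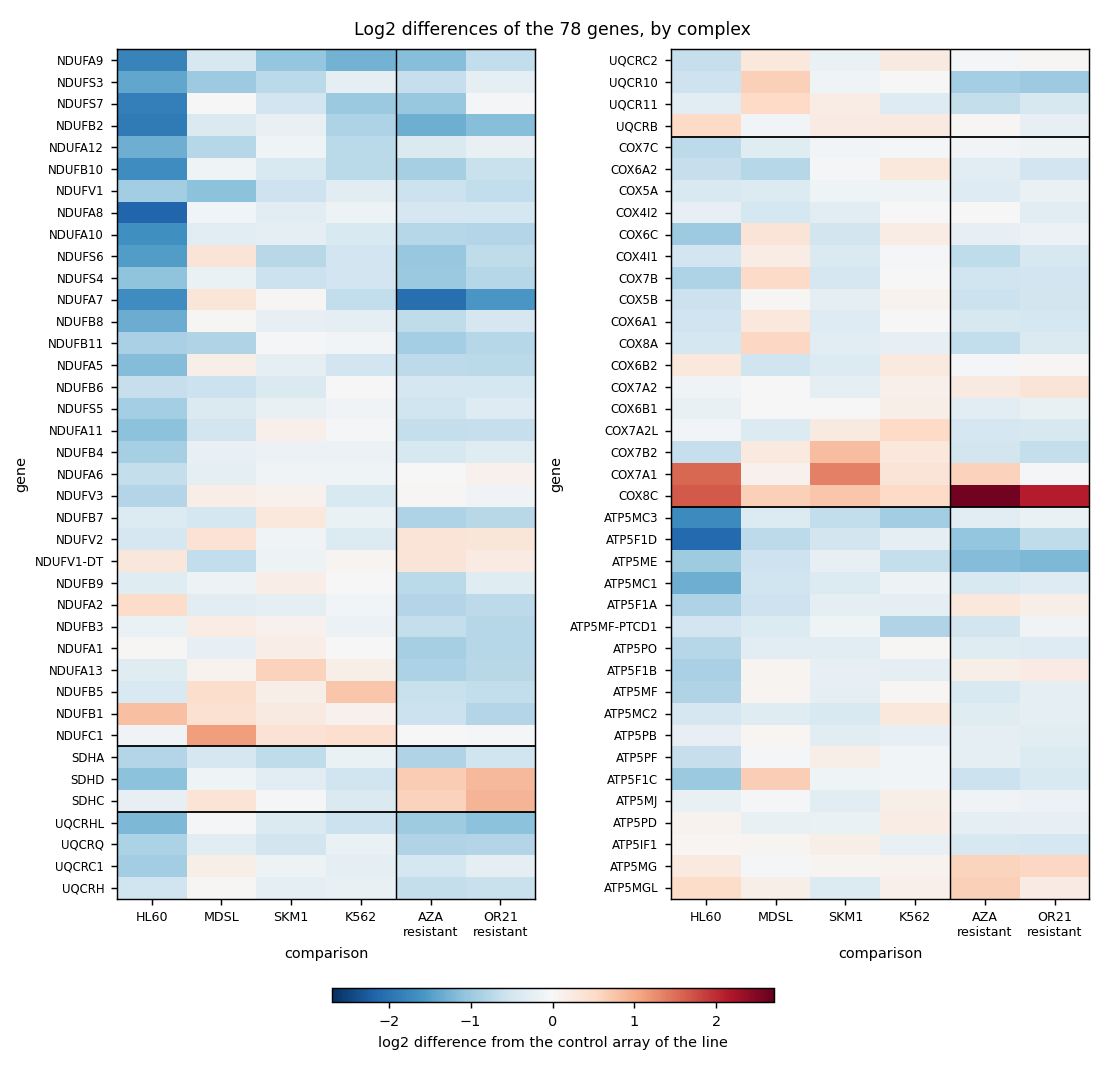
Log2 differences of all 78 genes, 1 row a gene, with black lines between complexes and genes ordered by their mean over the 4 lines within each. Columns 1 to 4 are OR21 minus control in each line, and the last 2 are the resistant derivatives minus the parental HL60 control. The HL60 column is mostly blue (lower), with COX7A1 and COX8C red (higher).

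The response at 500 nM (HL60 and K562) was set against that at 100 nM (MDSL and SKM1), a split in which dose and line cannot be told apart. In the limma interaction 0 of 78 genes passed, against 0.0% of all genes in either direction, and the smallest adjusted p of a subunit gene was 0.877. At an unadjusted p under 0.05, 2 genes were lower at 500 nM and 0 higher, against 2.73% and 2.75% of all genes. Without K562 the count of lower genes was 10 (smallest adjusted p 0.276 in the limma interaction), and it was 0 without HL60, MDSL or SKM1. There were 4 genes lower in both lines at 500 nM and higher in both at 100 nM (5.13%), against 4.70% of all genes. NDUFA7 was among them, with differences of -1.68 in HL60 and -0.67 in K562, against 0.33 in MDSL and 0.03 in SKM1.

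The resistant HL60 derivatives, untreated, were set against the parental HL60 control. At least 1.5-fold lower were 32 of 78 genes in the AZA resistant derivative (41.0%), against 14.4% of all genes and 18.8% of genes at or above 10 log2. In the OR21 resistant derivative they were 25 (32.1%), against 14.3% and 15.7%. At least 1.5-fold higher were 6 genes (7.69%), against 14.0% and 13.3%, in the AZA resistant and 3 genes (3.85%), against 14.0% and 14.4%, in the OR21 resistant derivative. At 2-fold, 8 genes were lower and 1 higher in the AZA resistant derivative, against 5.11% and 7.04% of all genes, and 4 lower and 1 higher in the OR21 resistant derivative, against 4.27% and 7.69%. Of the 3804 genes at or above 10 log2, 236 were 2-fold lower and 245 higher in the AZA resistant derivative. In the OR21 resistant derivative they were 184 and 263. The median difference was -0.46 log2 in the AZA resistant and -0.37 in the OR21 resistant derivative, against -0.02 and -0.07 over all genes. Over genes at or above 10 log2 the medians were -0.13 and -0.08. Both comparisons, and that of treated HL60, use the same parental control array, so a value particular to it enters all 3.

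Complex I made up most of the lower genes. Its median was -0.66 log2 in the AZA resistant and -0.64 in the OR21 resistant derivative. At least 1.5-fold lower in both were 23 genes (29.5%), against 9.33% of all genes and 12.9% of genes at or above 10 log2. They were 17 genes of complex I, 4 of complex III, 2 of ATP synthase and 0 of complexes II and IV. Of these, 14 were also at least 1.5-fold lower in OR21-treated HL60 (17.9%), against 5.17% of all genes and 7.33% of those at or above 10 log2. The medians of complex III were -0.65 and -0.52, of complex IV -0.31 and -0.31, and of ATP synthase -0.32 and -0.26, AZA resistant given before OR21 resistant.

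NDUFA7 had the lowest difference of the 78 genes in both derivatives. It stood at 10.05 log2 in the AZA resistant and 10.53 in the OR21 resistant derivative, against 12.10 log2 in parental HL60, differences of -2.04 and -1.56. Treated HL60 was at 10.41. NDUFB2 stood at 9.16 and 9.33 log2 in the AZA resistant and OR21 resistant derivatives, against 10.48 log2 in parental HL60. ATP5ME stood at 10.27 and 10.23 log2 in the AZA resistant and OR21 resistant derivatives, against 11.45 log2 in parental HL60. For these 3 genes both derivatives and the treated array lay at least 1.5-fold under the parental control.

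Complex II went the other way in part. SDHC stood at 12.35 log2 in the AZA resistant and 12.64 in the OR21 resistant derivative, against 11.73 log2 in parental HL60. SDHD stood at 12.49 and 12.70 log2 in the AZA resistant and OR21 resistant derivatives, against 11.82 log2 in parental HL60. Both anchor genes were thus higher in both derivatives, whereas in treated HL60 they were at 11.51 and 10.71 log2, under the parental control. The catalytic SDHA stood at 11.08 and 11.36 log2 in the AZA resistant and OR21 resistant derivatives, against 11.89 log2 in parental HL60. Among the 78 genes, SDHC, SDHD and COX8C were the 3 that were at least 1.5-fold higher in both (3.85%), against 10.1% of all genes.

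COX8C had the largest difference of the 78 genes in both derivatives. It stood at 7.76 log2 in the AZA resistant and 7.26 in the OR21 resistant derivative, against 5.15 log2 in parental HL60. The sizes of the differences, 2.61 and 2.11, are imprecise, since the parental control was under background. Treated HL60 was at 6.80. COX7A1 stood at 6.70 log2 in the AZA resistant and 6.02 in the OR21 resistant derivative, against 6.08 in parental HL60, and was thus near the parental level only in the OR21 resistant derivative. ATP5MGL, a copy of the ATP synthase subunit gene ATP5MG, differed by 0.64 and 0.23.

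The derivatives were close to each other, about as close as in genes at or above 10 log2. Only NDUFS7 and COX7A1 were at least 1.5-fold apart between them (2.56%), against 11.0% of all genes and 3.55% of genes at or above 10 log2. NDUFS7 was 0.97 log2 higher and COX7A1 differed by -0.68, OR21 resistant minus AZA resistant. Both genes were dim, with NDUFS7 above the array's gene median on 4 of the 10 arrays and COX7A1 on 2. The median difference over the 78 genes was 0.06 log2, against -0.0034 over all genes.

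**Figure D4:**
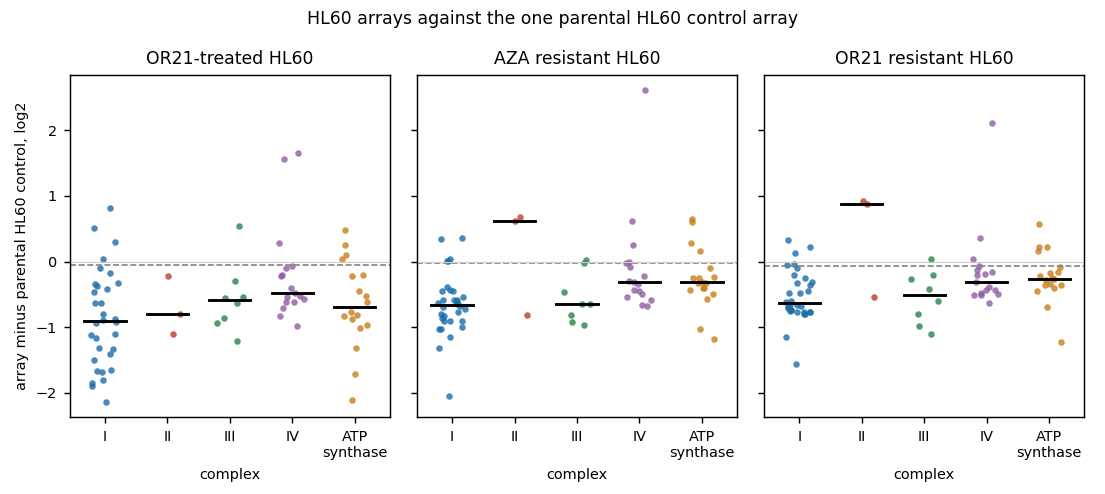
Log2 difference of each of the 78 genes from the same parental HL60 control array, for OR21-treated HL60 and the 2 untreated resistant derivatives, grouped by complex. Points are genes, black bars medians and dashed lines the median over all genes. Complex I medians are -0.90, -0.66 and -0.64, while SDHC and SDHD lie above 0 in both derivatives.

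Other genes of the pathway were counted from lists made by function, in which 0 genes passed the limma test over the 4 lines. For these lists the shares over all genes are 52.4% lower on average, 57.9% at or above 10 log2, and 10.1% lower at an unadjusted p under 0.05. For that p cut no share of genes at or above 10 log2 is given. Of 44 assembly factors, 42 were lower on average, 19 of them at an unadjusted p under 0.05, with a median of -0.46 log2. BCS1L, which inserts the Rieske protein into complex III, differed by -1.57 ± 1.43 log2, NUBPL, which helps to build complex I, by -1.43 ± 1.31, and NDUFAF2 by -1.38 ± 0.78 (SD, n = 4 lines). COX17, the copper chaperone, differed by 0.27 ± 0.33 and SURF1 by 0.20 ± 0.37. At least 1.5-fold lower were 30 of the 44 for HL60, 10 for MDSL, 18 for SKM1 and 20 for K562, against 21.3%, 14.9%, 14.2% and 12.6% of all genes and 35.9%, 20.2%, 18.9% and 17.8% of genes at or above 10 log2. The MDSL count was near the share of those brighter genes.

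The 12 genes of mitochondrial DNA maintenance and transcription were all lower on average, against 52.4% of all genes, and 10 were lower at an unadjusted p under 0.05, against 10.1%. Their median was -0.71 log2. The DNA helicase TWNK differed by -1.92 ± 0.92 log2, LRPPRC, which stabilises mitochondrial messengers, by -1.07 ± 0.89, and the packaging factor TFAM by -0.91 ± 0.38 (SD, n = 4 lines). Adjusted p by limma was 0.115 for TWNK, 0.183 for LRPPRC and 0.124 for TFAM. By line the median was -1.20 for HL60, -0.61 for MDSL, -0.55 for SKM1 and -0.63 for K562. This list and the assembly factors were thus lower also in K562, where the subunit median was -0.10.

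A list of 6 measured subunits and carriers outside the symbol rule, which did not hold COXFA4 or COXFA4L2, was lower on average in 6 of 6, against 52.4% of all genes. At an unadjusted p under 0.05, 3 were lower, against 10.1%. The ADP/ATP carrier SLC25A4 differed by -1.44 ± 1.03 log2, NDUFAB1, the acyl carrier subunit of complex I, by -1.02 ± 0.76, and cytochrome c1 (CYC1) by -0.84 ± 0.74 (SD, n = 4 lines). COXFA4, known as a complex IV subunit and also outside the rule, was higher on average, by 0.12 ± 0.10 log2 (SD, n = 4 lines, adjusted p = 0.746 by limma). COXFA4L2 was near background, at 4.85 to 5.70 log2 on the 10 arrays. Of 11 tricarboxylic acid cycle genes 9 were lower on average, against 52.4% of all genes, and 4 at an unadjusted p under 0.05, against 10.1%. SUCLG2 differed by -1.19 ± 0.66, IDH3B by -0.98 ± 0.51 and DLST by -0.71 ± 0.47, while citrate synthase (CS) differed by -1.08 in HL60 and by 1.11 in MDSL and 0.95 in SKM1.

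Of 9 nuclear regulators 7 were lower on average, against 52.4% of all genes. At an unadjusted p under 0.05, 2 were lower and 1 was higher, against 10.1% and 8.98% of all genes. MYC differed by -2.58 ± 1.58 log2 and PPRC1, a coactivator related to PGC-1alpha, by -1.62 ± 0.87, whereas HIF1A, the hypoxia factor, differed by 0.79 ± 0.34 (SD, n = 4 lines). Adjusted p by limma was 0.122, 0.119 and 0.136. NRF1 differed by -0.23 ± 0.47 and GABPA by -0.02 ± 0.20, both named after their values were seen. PPARGC1A, which encodes PGC-1alpha, differed by 1.68 in HL60 and -0.42 in SKM1. Its mean level was 5.97 log2, under the lowest array median of 6.63, so these differences may be limited by background.

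**Figure D5:**
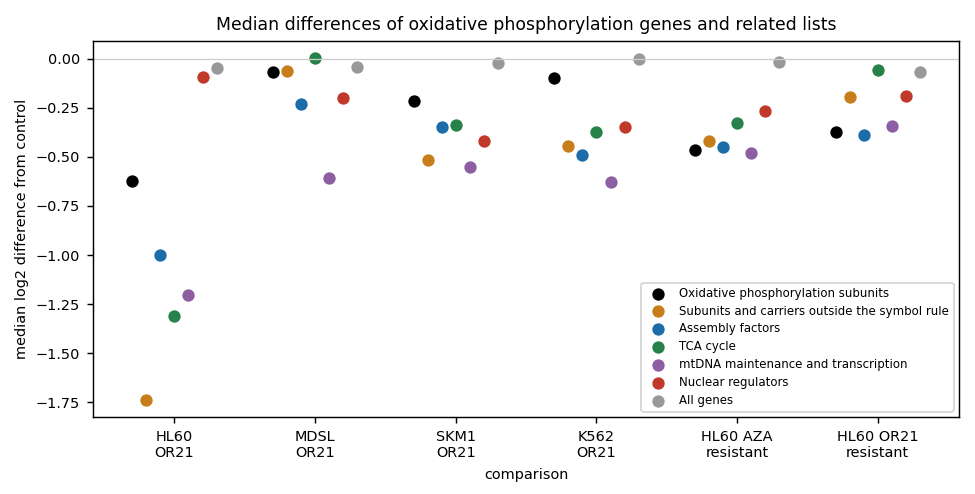
Median log2 difference from the control of the line, for the 78 genes, the 5 related lists and all genes, in 6 comparisons on the x axis. Each point is the median of 1 list. In HL60 the subunit median is -0.62 and that of the mitochondrial DNA list -1.20, and all genes lie near 0.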

How the data were processed

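The deposited table held linear intensity values per probe set for 10 arrays (4.25 to 405294). The software and normalization behind them are not given in the sources used here, and no probe set gives a depth. Their log2 was taken with nothing added. A platform annotation named 17709 of 24351 rows. For 20 genes with several probe sets the one with the highest mean was kept, leaving 17687 genes. 0 columns belonged to no sample. The OR21 response was fitted with limma 3.58.1 in R 4.3.3 on 8 arrays, blocking on cell line, as a two-sided test with Benjamini-Hochberg adjustment over all genes (threshold 0.05). The pairing comes from the line, which is the only replicate. No label says that cultures were separate, so p-values measure only the spread between lines. Single comparisons were given as sizes, counted at 1.5-fold. The steps were checked on simulated data. Named genes were those with the 6 highest and 6 lowest means over the lines, the 3 largest differences each way in each comparison among genes at or above the array median, the SDH genes, ATP5IF1 and the paralogues, and up to 3 each way per related list. Members and lists were chosen with earlier results of these data known. Genes shown beside others for context were named after their values were seen. Promoter windows are those of RefSeq, GRCh38.p14. Alternatives were quantile normalization, median centring, 16 added before log2, leaving out the dimmest genes (under the 30th percentile), averaging a gene's probe sets, no block, each line left out, 2-fold, and, chosen after the data were seen, scaling to the 4 hybridisation spike probe sets.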

Additional observations from a re-analysis of the deposited data

Results flagged for a closer look

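Flags mark a line whose value lies far from the other 3, and chance flags about 1 in 20 groups. The number of groups screened is not given, so the flags cannot be set against that rate. The complex I median in HL60, -0.90 log2, lay under the -0.19 to -0.15 of the other lines, and so did the difference of NDUFA8 in HL60, -2.14 against -0.28 to -0.07. The difference of ATP5MC2 in K562, 0.28, lay above the -0.45 to -0.33 of the others. In treated cells ATP5F1D stood at 11.54 log2 in K562 against 10.01 to 10.14, COX6B1 at 14.41 in K562 against 13.76 to 13.79, COX7A2L at 13.62 in MDSL against 14.48 to 14.60, and COX8C at 6.80 in HL60 against 6.27 to 6.35. In controls COX7B stood at 12.22 log2 in MDSL against 14.34 to 14.60, and COX4I2 at 6.20 in MDSL against 5.30 to 5.39. The MDSL control array was the one whose background probes stood apart, and its part was not tested.

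For 2 named genes both lines at 500 nM moved opposite to both lines at 100 nM. NDUFA7 had a difference between the doses of -1.36 log2 (adjusted p = 0.877 in the limma interaction) and COX6B2, which was under background on every array, of 0.73 (adjusted p = 0.882).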

How the results depend on the processing

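Under every alternative run, 0 of the 78 genes passed the limma test over the lines and 0 passed the dose interaction. With no replicate block the count over the lines was 0, the smallest adjusted p of a subunit gene 0.982 and 0 and 2 genes were lower and higher at an unadjusted p under 0.05. Median centring moved the all-gene median to -0.22 in HL60, -0.17 in SKM1, -0.14 in K562, -0.18 in the AZA resistant and -0.22 in the OR21 resistant derivative, and left the distance between subunit and all-gene medians as it was. Spike scaling moved the all-gene median in HL60 to -0.81 and in K562 to 0.10. Genes higher on average numbered 13, and 8 with median centring or spike scaling, and between 14 and 22 with a line left out, the 22 being without HL60. At 2-fold the counts lower and higher were 20 and 2 for HL60, 1 and 1 for MDSL, 1 and 1 for SKM1, 1 and 0 for K562, 8 and 1 in the AZA resistant and 4 and 1 in the OR21 resistant derivative. Quantile normalization gave 5 higher in HL60, 12 lower in MDSL, 8 lower in SKM1 and 2 higher in K562. Median centring gave 12 lower in SKM1 and 1 higher in the AZA resistant derivative. Spike scaling gave 69 lower in HL60 and 3 higher in K562. For quantile normalization, median centring and spike scaling the shares of all genes are not given. Those counts show only how the subunit counts moved.

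Medians that turned were that of all 78 genes in K562 (0.0030 by spike scaling), complex III in MDSL (-0.026 by quantile normalization) and over the lines (0.022 without HL60), and complex IV in MDSL (-0.061 by quantile normalization, -0.021 by median centring) and K562 (-0.012 by median centring). Mean differences near 0 also turned. Median centring gave -0.11 for ATP5IF1, -0.027 for ATP5MGL and -0.039 for COX7A2L, spike scaling -0.12, -0.034 and -0.046, and quantile normalization 0.014 for UQCR10. Without HL60 the values were 0.15 for ATP5F1C, -0.028 for ATP5MGL, 0.046 for COX6B1, 0.029 for COX7B, 0.011 for COX8A and 0.17 for UQCR10. Without MDSL they were -0.0063 for ATP5IF1 and 0.060 for COX6B2, and without K562 -0.062 for COX7A2L and 0.032 for SDHC. Without SKM1 they were -0.029 for ATP5IF1, 0.0077 for COX6B2, 0.015 for COX7A2, -0.024 for COX7B2, -0.022 for NDUFA13 and 0.027 for UQCR10. The causes were not tested. A sign-flip test of complex medians was not run, since its smallest two-sided exact p over 4 lines is 0.125.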
